A study of Mus musculus with 12 samples.

Results

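The constitutive proteasome was followed through its subunit genes in G1ME cells. Its members were taken as every gene symbol made of Psma, Psmb, Psmc or Psmd and a number, named alone by a probe set in the platform annotation, without the 4 symbols Psmb8, Psmb9, Psmb10 and Psmb11 (inducible and thymus-type catalytic subunits). The rule found 35 genes, carried by 73 probe sets, among 18193 genes with a single-symbol probe set, and each gene was read from its brightest probe set, by the mean of the 12 arrays. The core particle had 15 of these genes, the regulatory particle 17, and 3 (Psmd5, Psmd9 and Psmd10) encode chaperones that assemble the base of the regulatory particle. Genes brighter than the array median on 3 or more of the 12 arrays were tested, 34 of the 35 members and 10759 genes in all.

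G1ME is a murine line of megakaryocyte-erythrocyte progenitors that lack Gata1 per the labels, and all 4 groups share that background. The vector groups received the MIGR1-GFP retroviral control vector and the GATA1 groups the same vector carrying GATA1, the transcription factor that drives red cell and megakaryocyte maturation. Cells carrying GFP were then collected with a sorter, either 18 h or 42 h after transduction. This gives 4 groups of 3 arrays, lettered A, B and C and called biological triplicates. All samples come from 1 cell line, and the sort selects cells that carry the vector.

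The proteasome degrades proteins tagged with ubiquitin. Its core particle is a barrel of stacked alpha and beta rings, in which the subunits encoded by Psmb5, Psmb6 and Psmb7 cut the protein chain. The regulatory particle caps the barrel: a base with a ring of ATPases (the Psmc genes) unfolds the substrate and opens the alpha ring, and a lid removes the ubiquitin. The transcription factor NRF1 (Nfe2l1) raises the subunit genes together through antioxidant response elements when proteasome activity falls short, and maturing red cells and megakaryocytes both rely on the proteasome to remodel their protein content.

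The start regions of the members on which the results turn are shown first. RefSeq windows (GRCm38.p6) of 300 bases, 250 before to 50 after the annotated start, were matched by symbol for 28 of the 35 members, as 30 windows. Psmb4, Psmc4 and Psmd9 are shown for their values at 42 h, Psmb6 for its difference over time, and Psmd11 for an ETS-type motif that a higher share of member windows than of all windows held. Each is written in the direction of the gene, and capitals mark a match, on either strand, to TGACNNNGC (the core of the antioxidant response element), AGATAA (the site preferred by GATA1 and its relatives) or CCGGAAG (the ETS-type motif).
Psmb4: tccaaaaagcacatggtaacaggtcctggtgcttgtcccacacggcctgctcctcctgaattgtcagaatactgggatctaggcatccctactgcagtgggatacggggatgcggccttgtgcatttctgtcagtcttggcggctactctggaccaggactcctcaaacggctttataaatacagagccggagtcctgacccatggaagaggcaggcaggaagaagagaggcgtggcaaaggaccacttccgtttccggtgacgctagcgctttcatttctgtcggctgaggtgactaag
Psmc4: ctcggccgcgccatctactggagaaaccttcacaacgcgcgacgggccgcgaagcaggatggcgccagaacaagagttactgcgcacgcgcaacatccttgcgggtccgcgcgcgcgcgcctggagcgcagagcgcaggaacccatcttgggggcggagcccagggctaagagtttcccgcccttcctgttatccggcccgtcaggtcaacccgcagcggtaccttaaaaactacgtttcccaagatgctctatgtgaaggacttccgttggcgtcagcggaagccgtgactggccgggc
Psmd9: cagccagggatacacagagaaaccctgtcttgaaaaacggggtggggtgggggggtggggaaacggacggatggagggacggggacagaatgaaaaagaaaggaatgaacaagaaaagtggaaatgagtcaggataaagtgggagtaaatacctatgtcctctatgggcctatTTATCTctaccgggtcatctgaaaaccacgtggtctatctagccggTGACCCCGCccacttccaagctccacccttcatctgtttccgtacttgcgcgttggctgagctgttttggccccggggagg
Psmb6: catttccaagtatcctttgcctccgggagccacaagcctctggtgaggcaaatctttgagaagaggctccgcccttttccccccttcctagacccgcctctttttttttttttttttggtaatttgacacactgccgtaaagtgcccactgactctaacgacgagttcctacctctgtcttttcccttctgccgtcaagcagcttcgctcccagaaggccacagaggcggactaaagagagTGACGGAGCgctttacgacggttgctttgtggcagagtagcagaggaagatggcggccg
Psmd11: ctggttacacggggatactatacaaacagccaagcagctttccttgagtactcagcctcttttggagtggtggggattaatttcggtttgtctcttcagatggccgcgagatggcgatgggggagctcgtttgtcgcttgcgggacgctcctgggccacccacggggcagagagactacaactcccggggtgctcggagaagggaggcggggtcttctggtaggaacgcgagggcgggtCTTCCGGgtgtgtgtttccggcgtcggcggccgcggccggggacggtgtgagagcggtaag
The windows are chr3:94886909-94887208, minus strand (Psmb4), chr7:28050043-28050342, minus strand (Psmc4), chr5:123227940-123228239, plus strand (Psmd9), chr11:70525107-70525406, plus strand (Psmb6) and chr11:80428365-80428664, plus strand (Psmd11). The Psmb4 and Psmc4 windows held none of these motifs and no CCAAT. In the Psmd9 window TGACNNNGC began 31 bases before the start and AGATAA, on the reverse strand, 77 bases before it. TGACNNNGC began 9 bases before the Psmb6 start, and CCGGAAG, on the reverse strand, 11 bases before the Psmd11 start. Among all member windows, CCGGAAG was found in 11 of 30 (36.7%, 10 genes), against 8.86% of the 32851 RefSeq windows of the same length. TGACNNNGC was in 5 (16.7%, against 12.4%), AGATAA in 2 (6.67%, against 11.2%) and CCAAT in 11 (36.7%, against 37.4%). A match describes these letters and is not a measured binding site.

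The deposited values are linear intensities, so levels are given as intensity and differences as log2(intensity + 16), a scale that shrinks the changes of dim probe sets. Array medians lay between 8.05 and 8.29. With 3 arrays a group, their number limits the precision. GATA1-labelled array A at 42 h stood apart in its control probe sets: its log2 ratio of 3' to 5' signal was 0.796 for actin and -0.113 for Gapdh, against 0.38 to 0.55 and -0.496 to -0.259 on the other 11 arrays. Results that rest on it are given with and without it. The Gata1 probe set read 3136 ± 116 (SD, n = 3) in vector-labelled cells and 2044 ± 355 in GATA1-labelled cells at 42 h, a difference of -0.63 ± 0.11 (SE) with a limma adjusted p of 0.0035, so it goes against the labels, and the sources do not say where it lies relative to the deleted or introduced sequence. Groups are therefore called by their labels.

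Markers of maturation separated the same arrays. The summed intensity of 11 erythroid markers was 458 to 989.7 in vector-labelled cells and 35725 to 41989 in GATA1-labelled cells at 42 h, and that of 10 megakaryocyte markers 18395 to 19199 and 38524 to 48209. All 10 tested erythroid markers rose at 42 h, and 6 of 10 megakaryocyte markers rose while 1 fell. Of 6 tested progenitor markers 4 fell and 1 rose (median change -0.79), and 0 rose while 2 of 3 mast cell, 4 of 5 myeloid and 1 of 2 lymphoid markers fell. Kit is on both the progenitor and the mast cell list. Its fall (-3.42) is counted in both, and its intensity enters both sums. Over the same groups, 8 mast cell markers summed to 1988 to 3359 and 116 to 147, 7 myeloid markers to 2405 to 2714 and 178 to 221, 5 lymphoid markers to 140.04 to 216 and 99.4 to 130.3, and 7 progenitor markers to 19332 to 20794 and 19458 to 20446. In bulk RNA, fewer cells of a type and less RNA per cell cannot be told apart, and the part of these markers in the results that follow was not tested.

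At 42 h the constitutive proteasome genes stayed near their vector levels. None of the 34 tested members passed limma's adjusted p of 0.05 in GATA1-labelled against vector-labelled cells, beside 20.9% of all 10759 genes (2251). That fit did not use the replicate letters, and 3 members were called in the fit that did, as given below. Without the letters, 4 of the 34 members had an unadjusted p under 0.05 (Psma5, Psmb4, Psmc4 and Psmd9), beside 3415 of all 10759 genes. The members' changes ran from -0.15 to 0.38 with a median of 0.03 and quartiles of -0.04 and 0.12. Over all genes the median was 0.00 and the quartiles -0.15 and 0.15. A change under 0.2 either way was found for 30 of the 34, a count not made over all genes. The 95% interval lay within 1.5-fold for 31 members and within 2-fold for all 34. The lowest bound was -0.46 (Psmd3) and the highest 0.68 (Psmc4).

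Same-lettered arrays deviated together in this comparison, with correlations of 0.60, 0.25 and 0.33 over all genes, so the fit was also made with the letter as a block. With it 3 members were called, each higher in GATA1-labelled cells, Psmb4, Psmc4 and Psmd9, beside 28.4% of all genes (3053). Psmb4 and Psmc4 were also called with array weights, as was Psmd9. The members' share remained under that of all genes in both fits, and no member was called lower. Among the 3011 genes with a mean intensity above 1000, which include 32 members, 21.8% were called at 42 h without the block.

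**Figure D1:**
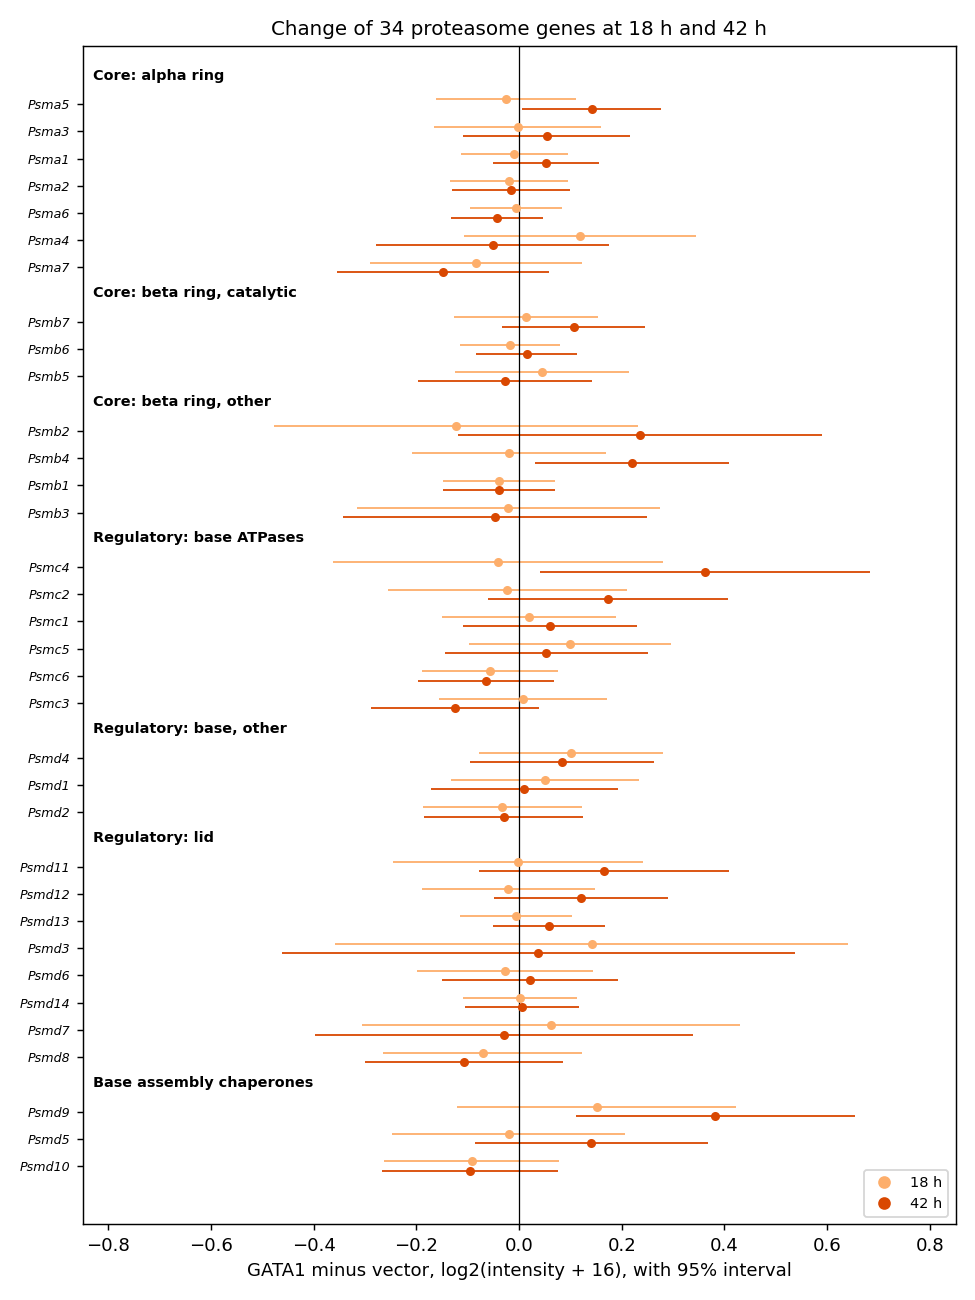
Fitted change (GATA1 minus vector, log2(intensity + 16)) of the 34 tested members at 18 h (light) and 42 h (dark), grouped by role, with 95% intervals from limma over 12 arrays. The fit shown does not use the replicate letters. At 18 h every interval includes 0, and at 42 h those of Psma5, Psmb4, Psmc4 and Psmd9 lie above it.

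At 18 h the members lay closer still to 0. No member was called by limma (lowest adjusted p 0.956), beside 1.85% of all genes (199). An unadjusted p under 0.05 was found for 0 members, beside 1056 of all 10759 genes. Changes ran from -0.12 (Psmb2) to 0.15 (Psmd9), with a median of -0.01 beside -0.01 over all genes, and 29 of the 34 were under 0.1 either way. Their quartiles were -0.03 and 0.02, beside -0.08 and 0.05 over all genes. The 95% interval lay within 1.5-fold for 33 members. The difference between the 18 h and 42 h effects was called for no member, beside 4.66% of all genes (501). It had an unadjusted p under 0.05 for 0 members, beside 1726 of all 10759 genes. Its median over the members was 0.00 and its range -0.17 to 0.40. With the block, 0 members were called in either comparison, beside 3.33% of all genes at 18 h and 7.86% in the difference of effects.

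The alpha ring forms the gate of the core particle, and its 7 tested genes lay on both sides of 0 at 42 h, 3 above and 4 below, with a median of -0.02. The highest change was that of Psma5. Its intensity was 12870.2, 12379 and 12466 on the vector-labelled arrays and 13115, 12102 and 11857 on the GATA1-labelled arrays at 18 h, and 12194, 12121 and 12190.0 with the vector and 14633, 13339.5 and 12391 with GATA1 at 42 h. The 3 vector arrays at 42 h lay within a narrow band and all 3 GATA1 arrays above it, a difference of 0.14 ± 0.06 (SE) with a limma adjusted p of 0.140 and a 95% interval of 0.01 to 0.28. A second, dimmer Psma5 probe set gave 0.15, with an adjusted p of 0.056 over all probe sets. Without GATA1-labelled array A at 42 h the change was 0.08, and with the block it was 0.14 with an adjusted p of 0.063.

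Psma7 had the lowest change of the ring and of all members. It read 9484, 9813 and 8437 on the vector-labelled arrays and 9203, 8689 and 8252 on the GATA1-labelled arrays at 18 h. The values were 9828, 9463 and 8766 with the vector and 9216, 8810.1 and 7381 with GATA1 at 42 h. Array C was the lowest of its group in all 4 groups, and the groups overlapped at 42 h. The difference there was -0.15 ± 0.09 (SE, adjusted p 0.325, interval -0.35 to 0.06) and its second probe set gave -0.16. With the block the limma adjusted p was 0.052, and without GATA1-labelled array A at 42 h the change was -0.21. The other 5 tested alpha genes ranged from -0.05 (Psma4) to 0.05 (Psma3). Psma8, the testis-type alternative to Psma7, read 6.37 to 6.69 on the 12 arrays, below every array's median, and was not tested.

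None of the 3 catalytic subunits of the beta ring differed between the labels by limma's test (adjusted p 0.295 or higher, 0 with an unadjusted p under 0.05). Psmb5, which carries the chymotrypsin-like activity, read 4857, 4877 and 5479 on the vector-labelled arrays and 5097, 5085 and 5492 on the GATA1-labelled arrays at 18 h. It was 4937, 5075 and 5305 with the vector and 4516, 5089.6 and 5462 with GATA1 at 42 h. Its groups overlapped at both times. The change at 42 h was -0.03 ± 0.08 (SE, adjusted p 0.908), or 0.05 without GATA1-labelled array A, with a 95% interval of -0.20 to 0.14. Psmb7, which carries the trypsin-like activity, had the highest change of the 3. Its values were 7009, 7972 and 7394 on the vector-labelled arrays and 7436, 7402 and 7714 on the GATA1-labelled arrays at 18 h, then 7109.6, 8078 and 7669.8 with the vector and 7983, 7959 and 8646 with GATA1 at 42 h. Again the groups overlapped, and the difference was 0.11 ± 0.06 (SE, adjusted p 0.295, interval -0.03 to 0.25).

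Psmb6, which carries the caspase-like activity, did not differ detectably between the labels but did over time. Its intensity was 5063, 5077 and 4849.6 on the vector-labelled arrays and 4985, 4902 and 4917 on the GATA1-labelled arrays at 18 h, and 5392, 5362 and 5672 with the vector and 5255, 5823 and 5525 with GATA1 at 42 h. All 6 arrays at 42 h were above all 6 at 18 h. At 42 h GATA1-labelled cells were 0.01 ± 0.04 (SE) above vector-labelled cells, with a 95% interval of -0.08 to 0.11. Between 18 h and 42 h Psmb6 rose in the GATA1-labelled cells, by 0.16 ± 0.04 (SE, limma adjusted p 0.0343), and the vector-labelled cells were 0.13 higher at the later time with an adjusted p of 0.590. The call in GATA1-labelled cells was lost when any GATA1-labelled array at 18 h, or array B or C at 42 h, was left out (adjusted p 0.0732 to 0.111).

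The 4 other beta subunits complete the ring without cutting, and they held the 2 highest changes of the core particle at 42 h. Psmb4, the brightest member on these arrays, read 17255, 16309 and 15746 on the vector-labelled arrays and 16658, 17129 and 14886 on the GATA1-labelled arrays at 18 h. Then it read 16092, 16552 and 16064 with the vector and 20559, 19892 and 16529 with GATA1 at 42 h. GATA1-labelled arrays A and B stood well above the rest, while array C (16529) lay just under the highest vector array, so the groups overlapped. The difference at 42 h was 0.22 ± 0.08 (SE, limma adjusted p 0.101), a 95% interval of 0.03 to 0.41. With the block it was 0.22 ± 0.06 (adjusted p 0.0294). Without GATA1-labelled array A the change was 0.16 (adjusted p 0.273), and without array C it was 0.32 (adjusted p 0.0115). Its second probe set, also bright at 13064 ± 378 in vector-labelled cells and 13526 ± 539 in GATA1-labelled cells, gave 0.05 ± 0.05.

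Psmb2 had the highest change of these 4. Its values were 1405, 2076 and 1757 on the vector-labelled arrays and 1770.0, 1269 and 1763 on the GATA1-labelled arrays at 18 h. The later arrays read 1513, 1563 and 1795 with the vector and 1954, 1879.6 and 1894 with GATA1 at 42 h. All 3 GATA1-labelled arrays at 42 h exceeded the 3 vector-labelled ones, but both 18 h groups spread more widely than that gap. The change was 0.24 ± 0.16 (SE, adjusted p 0.369, interval -0.12 to 0.59). Psmb3 had the lowest change of the 4, at 3869, 3248 and 3629 on the vector-labelled arrays and 3519, 3407 and 3642 on the GATA1-labelled arrays at 18 h. It read 3834, 3243 and 4357 with the vector and 3042, 3997 and 4039 with GATA1 at 42 h. GATA1-labelled array A at 42 h was the lowest of all 12, and the change went from -0.05 ± 0.13 (SE, adjusted p 0.911) to 0.09 without it. Psmb1 was at -0.04.

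**Figure D2:**
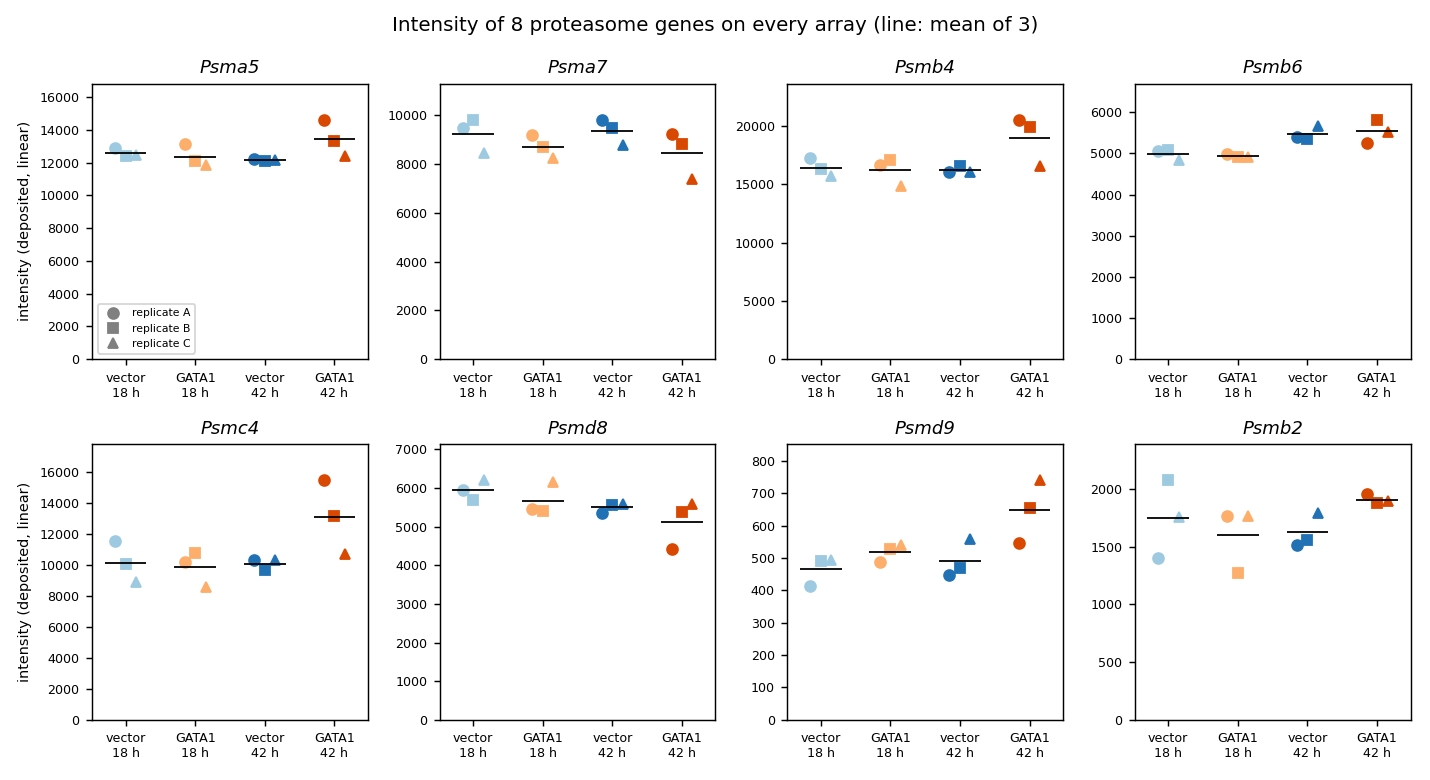
Deposited intensity (linear axis from 0) of 8 members on every array, with symbols for replicates A, B and C and a line for the mean of 3. Psmb4 and Psmc4 are high on GATA1-labelled arrays A and B at 42 h and Psmd9 on B and C, while Psmb6 is higher at 42 h than at 18 h under both labels.

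In the base of the regulatory particle, the 6 ATPase genes had a median change of 0.06 at 42 h, with 4 above and 2 below 0. Psmc4 had the highest change of all core and regulatory genes. Its intensity was 11502, 10053 and 8856 on the vector-labelled arrays and 10163, 10779 and 8581 on the GATA1-labelled arrays at 18 h. The later values were 10269, 9642 and 10271 with the vector and 15439, 13132 and 10659 with GATA1 at 42 h. The 3 GATA1-labelled arrays were all above the 3 vector-labelled ones, yet they spread from 10659 to 15439, more than the gap between the group means. The change was 0.36 ± 0.14 (SE, limma adjusted p 0.112, interval 0.04 to 0.68), and with the block 0.36 ± 0.10 (adjusted p 0.0318). Without GATA1-labelled array A it was 0.23 (adjusted p 0.305), and without array C it was 0.50 (adjusted p 0.0311). The second Psmc4 probe set read 4451 ± 186 and 4560.1 ± 578 at 42 h, a change of 0.03 ± 0.10, so the probe sets of this gene disagree.

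Psmc3 had the lowest change of the ATPases. It read 4652, 4091 and 4496 on the vector-labelled arrays and 4386, 4461 and 4444 on the GATA1-labelled arrays at 18 h. The later values were 4808, 4292 and 4692 with the vector and 3804, 4445 and 4419 with GATA1 at 42 h. The groups overlapped, with GATA1-labelled array A at 42 h the lowest of the 12, and the change was -0.12 ± 0.07 (SE, adjusted p 0.294), or -0.05 without that array. Of the other ATPases, Psmc2 was at 0.17, Psmc1 at 0.06, Psmc5 at 0.05 and Psmc6 at -0.06.

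The 3 other base genes encode the docking platform and a ubiquitin receptor, and they ranged from -0.03 to 0.08. Psmd4, the receptor, read 6093, 5768 and 5330.5 on the vector-labelled arrays and 6153, 6587 and 5709 on the GATA1-labelled arrays at 18 h. The values were 6726, 6246 and 5602 with the vector and 6642, 6711 and 6289 with GATA1 at 42 h. Its groups overlapped at both times and the change was 0.08 ± 0.08 (SE, adjusted p 0.551). Psmd2, a scaffold that binds shuttle factors, read 5421, 5112 and 5839 on the vector-labelled arrays and 5208, 5119 and 5668 on the GATA1-labelled arrays at 18 h. It read 5447, 5196 and 5819 with the vector and 5397, 5055 and 5667 with GATA1 at 42 h. Within each letter the 4 arrays differed little, array C being the highest and array B the lowest in every group, and the change was -0.03 ± 0.07 (SE, adjusted p 0.870, interval -0.18 to 0.12). Psmd1, the other scaffold, was at 0.01.

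The 8 lid genes had a median change of 0.03 at 42 h, 6 above and 2 below 0. Psmd11, a lid subunit that also contacts the core particle, had the highest. Its values were 4899, 4065 and 4237 on the vector-labelled arrays and 4636, 4431 and 4089.8 on the GATA1-labelled arrays at 18 h, and 4718, 3883 and 4146 with the vector and 5443, 4497 and 4379 with GATA1 at 42 h. Array A was the highest in every group and the groups overlapped. The change was 0.17 ± 0.11 (SE, adjusted p 0.355), the same with the block (adjusted p 0.0535) and 0.07 without GATA1-labelled array A. Its other 3 tested probe sets gave 0.17, 0.42 and 0.16, none of them called. Psmd8, another structural subunit of the lid, had the lowest change. It read 5944, 5698 and 6201 on the vector-labelled arrays and 5463, 5395 and 6147 on the GATA1-labelled arrays at 18 h. It then read 5349, 5556 and 5600.0 with the vector and 4429, 5378 and 5584 with GATA1 at 42 h. GATA1-labelled array A at 42 h was the lowest of the 12, and the change went from -0.11 ± 0.09 (SE, adjusted p 0.467) to -0.01 without it. Psmd14, the lid's deubiquitinase, was at 0.01, Psmd12 at 0.12 and Psmd3 at 0.04, the last with the widest spread of the members.

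Among the 3 chaperones of base assembly, Psmd9 had the highest change of all members. It was also the dimmest tested member, with a mean of 531 over the 12 arrays. Its intensity was 414, 492 and 495 on the vector-labelled arrays and 489, 529 and 539.7 on the GATA1-labelled arrays at 18 h. The values were 449, 468 and 559 with the vector and 547, 655 and 741 with GATA1 at 42 h. The lowest was array A in every group and the highest array C, and within each letter the GATA1-labelled array at 42 h was above the vector-labelled one. The change was 0.38 ± 0.12 (SE, limma adjusted p 0.0517, interval 0.11 to 0.65), just outside the threshold, and with the block 0.38 ± 0.06 (adjusted p 0.0033). Without GATA1-labelled array A it was 0.50 (adjusted p 0.0163), and that fit called 1 member (Psmd9) beside 19.3% of all genes. It was called as well without vector-labelled array C at 42 h (adjusted p 0.0286) or vector-labelled array A at 18 h (adjusted p 0.0482). In the other 9 of the 12 fits with an array left out it was not called (limma adjusted p up to 0.16). Its second probe set was dim, at 14.3 ± 1.7 and 17.3 ± 5.8 at 42 h. That set gave 0.12 ± 0.10 (SE, adjusted p 0.534 over all probe sets), and the mean of the Psmd9 probe sets gave 0.20 (adjusted p 0.074).

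Psmd10, the chaperone also called gankyrin, had the lowest change of the 3. Its values were 954, 929.8 and 898 on the vector-labelled arrays and 850.0, 849 and 908 on the GATA1-labelled arrays at 18 h, and 847, 922 and 1027 with the vector and 796, 929.8 and 885 with GATA1 at 42 h. The groups overlapped at 42 h, with a change of -0.10 ± 0.08 (SE, adjusted p 0.462), or -0.03 without GATA1-labelled array A. Psmd5 was at 0.14 (adjusted p 0.404). In all, 3 members had groups that did not overlap at 42 h, Psma5, Psmb2 and Psmc4, each higher in GATA1-labelled cells, beside 33.4% of all genes.

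Core and regulatory particle genes were then compared with each other across the 4 groups. Each gene was set against its own mean over the 12 arrays, and the median of these deviations was taken on each array. The core median was -0.02 ± 0.05 (SD, n = 3) in vector-labelled cells and -0.03 ± 0.02 in GATA1-labelled cells at 18 h, and 0.01 ± 0.04 and 0.03 ± 0.02 at 42 h. The regulatory median was -0.03 ± 0.07 and -0.02 ± 0.03 at 18 h, and -0.01 ± 0.03 and 0.02 ± 0.01 at 42 h. The core minus regulatory difference averaged 0.02 ± 0.03 and -0.01 ± 0.05 at 18 h, and 0.02 ± 0.03 and 0.01 ± 0.02 at 42 h, and the arrays of all 4 groups overlapped.

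**Figure D3:**
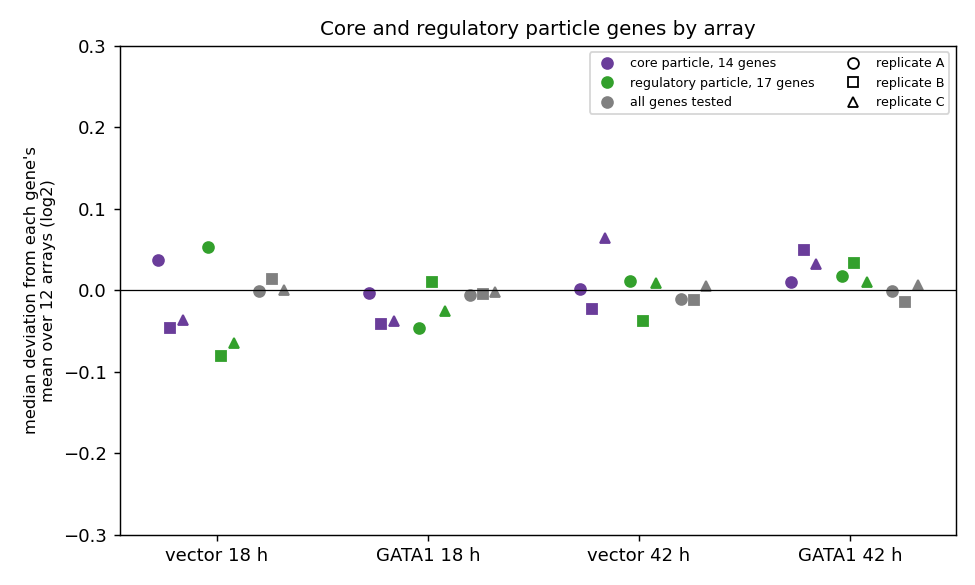
Median deviation of 14 core genes, 17 regulatory genes and all tested genes from their own means over 12 arrays (log2 scale), by array. Core and regulatory symbols overlap within every group, and their medians run from -0.0804 to 0.064.

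By comparison, the median change of the core genes was -0.02 at 18 h and 0.00 at 42 h, with 7 of 14 above 0 at the later time. For the regulatory genes it was 0.00 and 0.04, with 12 of 17 above 0 at 42 h. Over all genes these medians were -0.01 and 0.00. The members' median pooled SD within groups was 0.10 on the log2 scale, from 0.04 (Psma6) to 0.29 (Psmd3), against 0.14 over all genes. The members are brighter, with 32 of 34 at a mean above 1000 beside 3011 of 10759 genes. The spread of genes of like brightness was not computed.

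The later time was then set against the earlier one within each label. In vector-labelled cells 0 members were called by limma between 18 h and 42 h, beside 0.0186% of all genes (2). Of the 34, 1 (Psmb6) had an unadjusted limma p under 0.05, beside 676 of all 10759 genes. In GATA1-labelled cells 1 member was called, Psmb6, which rose, beside 14.6% of all genes (1574). An unadjusted p under 0.05 was found there for 6 of 34 members, beside 2927 of all 10759 genes. The members' median over this interval was 0.09 (0.07 core, 0.09 regulatory) beside 0.00 over all genes, with 26 of 34 above 0, and the median in vector-labelled cells was 0.03 with 25 above 0. These comparisons share arrays with those between the labels. Same-lettered arrays did not all deviate together over the GATA1 interval, and the fit with the block called Psmb4, Psmb6, Psmc4 and Psmd9 there, beside 21.5% of all genes.

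More than 1 probe set represents 19 of the members, and 61 of the 73 probe sets passed the filter. A fit over all 19636 single-symbol probe sets that passed called 1 of these 61 at 42 h, beside 15.8% of all. That set is a dim Psmd13 one, lower in GATA1-labelled (11.5 ± 0.1, SD, n = 3) than in vector-labelled cells (20.0 ± 2.3), by -0.39 ± 0.05 (SE, limma adjusted p 6.0e-04). It read 11.8 ± 1.1 with the vector and 11.2 ± 0.2 with GATA1 at 18 h, so the vector-labelled cells at 42 h were the group that stood apart, and the difference between the effects was -0.36 (adjusted p 0.0268). The brightest Psmd13 probe set read 4101 ± 83 and 4274 ± 195 there, a change of 0.06. Psmd6 also differed between its sets, at 0.02 for the brightest and 0.33 (adjusted p 0.144) for the dimmer one.

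Genes that work with the proteasome, from lists chosen with earlier results of these data known, were called in several cases at 42 h. Over 7 such lists with 44 tested genes, 0 were called by limma at 18 h, beside 1.85% of all genes. There 3 of the 44 had an unadjusted p under 0.05, beside 1056 of all 10759 genes. At 42 h 8 rose and 8 fell, beside 20.9% of all genes called. The immunoproteasome subunits, which replace the catalytic beta subunits in immune and inflamed cells, had 2 of 3 tested genes lower at 42 h and a median change of -0.88. Psmb8 fell from 1429 ± 31 (SD, n = 3) to 560.3 ± 106, a change of -1.34 ± 0.11 (SE, limma adjusted p 3.4e-05). Psmb9 fell from 585 ± 74 to 311 ± 45 (-0.88 ± 0.13, adjusted p 9.1e-04). Without GATA1-labelled array A the changes were -1.21 and -0.77, both called. The second Psmb8 probe set gave a smaller fall of -0.26 (adjusted p 0.0261). Psmb10 was at 1991 ± 215 and 1926 ± 100.4.

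Each catalytic subunit was set against the inducible subunit that takes its place, as a log2 difference on each array. The difference is between probe sets and only its change between groups can be read. The permutation tests did not use the replicate letters. For Psmb5 and Psmb8 it went from 1.82 ± 0.08 (SD, n = 3) in vector-labelled to 3.14 ± 0.21 in GATA1-labelled cells at 42 h, with no overlap (exact permutation p = 0.1, the smallest that 3 against 3 arrays allow, two-sided, or 0.3 adjusted over 6 tests of 3 pairs). For Psmb6 and Psmb9 it went from 3.20 ± 0.23 to 4.09 ± 0.13, also with no overlap (exact permutation p = 0.1, adjusted 0.3). For Psmb7 and Psmb10 it was 1.93 ± 0.21 and 2.08 ± 0.06 (exact permutation p = 0.4, adjusted 0.6). At 18 h the 3 differences between labels were 0.12, 0.04 and -0.02. The wider gaps at 42 h lay on the inducible side, since Psmb5 and Psmb6 were within 0.03 of their vector levels. The Psmb5 and Psmb8 gap rests on the brightest Psmb8 probe set, and the second one fell by less (-0.26).

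Of 4 tested genes for activators and an inhibitor of the core particle, 1 rose and 1 fell (median change 0.18). Psme1, a subunit of the activator that caps the barrel in place of the regulatory particle, fell from 8813 ± 259.5 to 6075 ± 676 (-0.54 ± 0.07 SE, limma adjusted p 7.2e-04). Psmf1, a proteasome inhibitor, rose from 1178 ± 125 to 1640.4 ± 97 (0.48 ± 0.07, adjusted p 0.0016). Of 5 core assembly chaperones 0 were called by limma at 42 h and 0 had an unadjusted p under 0.05. Their median change was -0.08, which was that of Pomp, a factor that matures the core. With the block Psmg3 was called higher (0.20, adjusted p 0.0402), and over time in GATA1-labelled cells Psmg1 rose by 0.26 (adjusted p 0.0345). That call was lost without GATA1-labelled array A (0.25, adjusted p 0.0837), B or C at 42 h, or B or C at 18 h (adjusted p up to 0.120).

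Among 11 associated factors (median change -0.07) 0 rose and 3 fell: Ecpas, an adaptor that holds core and regulatory particle together (-0.43, limma adjusted p 0.0171), the shuttle factor Ubqln2 (-0.40, adjusted p 0.0073, or 0.401 for its second probe set) and the deubiquitinase Uchl5 (-0.21, adjusted p 0.0485). The Uchl5 call was lost when 10 of the 12 arrays were left out one at a time (adjusted p up to 0.140), and its second probe set gave 0.13, while the Ecpas call was lost without vector-labelled array A or GATA1-labelled array B at 42 h (0.0546 and 0.0591). Among 11 tested genes of the NRF1 axis (median change 0.15) 2 rose and 1 fell. Mafk, a small partner of NRF1 and NRF2, rose by 0.73 (adjusted p 7.7e-04) and Nfe2l2, which encodes NRF2, by 0.56 (adjusted p 6.5e-04). The Nfe2l2 probe sets disagree, since its second one gave 0.08 (adjusted p 0.903) and the mean of all 0.32 (adjusted p 0.0764). Ngly1, the deglycosylase that activates NRF1, fell by 0.56 (adjusted p 9.2e-04). Nfe2l1 itself was at 150 ± 29 and 159 ± 38, a change of 0.07 ± 0.17 (adjusted p 0.887).

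Ubiquitin enzymes of red cell maturation showed the widest changes, with 5 of 9 tested genes higher, 1 lower and a median of 0.47. Trim10, an erythroid ubiquitin ligase, rose by 2.04, Ube2l6, a conjugating enzyme, by 1.30, and Ubac1, a ubiquitin ligase subunit, by 0.85. Rnf123, the catalytic partner of Ubac1, rose by 0.54 (adjusted p 0.0052) and Ube2c, a conjugating enzyme of mitosis, by 0.47 (adjusted p 0.0098). Both leading changes depend on the pseudocount, with 1.16 for Trim10 and 0.57 for Ube2l6 on the log2(intensity + 64) scale. Ube2h, another conjugating enzyme, fell by 0.82, and Ube2o, which acts on ribosomal proteins in reticulocytes, was called lower with the block only (-0.67, adjusted p 0.0377). The 1 tested gene for ubiquitin activation, Uba6, was at -0.12 (adjusted p 0.506).

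**Figure D4:**
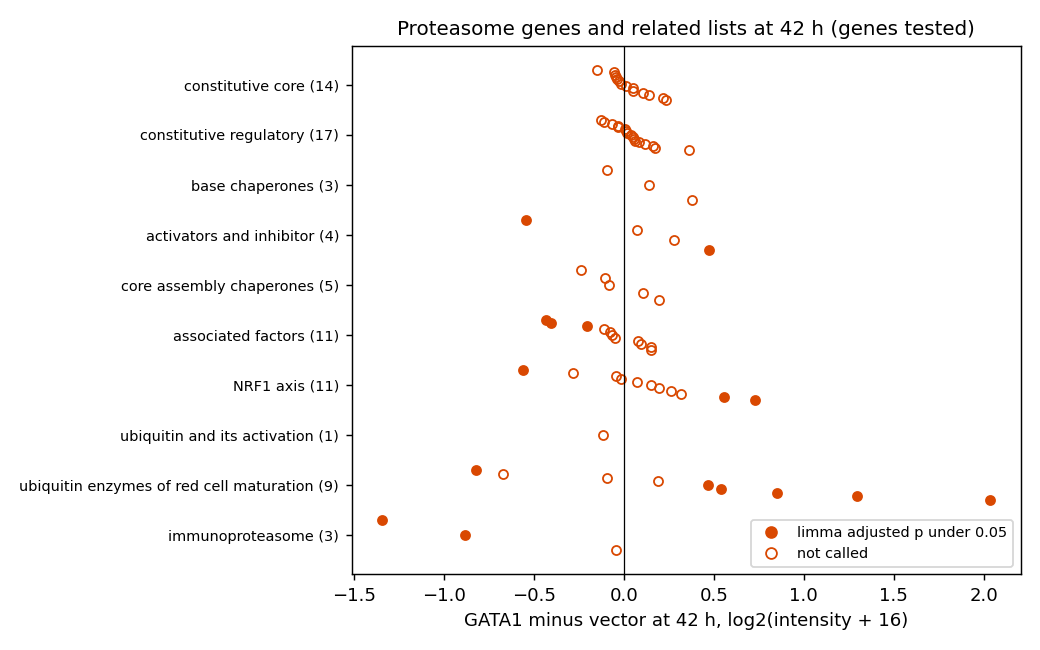
Change at 42 h (GATA1 minus vector, log2(intensity + 16)) of every tested gene of the core particle (14), the regulatory particle (17), the base chaperones (3) and 7 related lists, with filled symbols where limma's adjusted p was under 0.05. No symbol of the constitutive genes is filled, while the ubiquitin enzymes reach 2.04 and the immunoproteasome -1.34. The fit shown does not use the replicate letters, and with them as a block Psmb4, Psmc4 and Psmd9 were called.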

How the data were processed

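Deposited values were linear array intensities of 45101 probe sets per sample, 1 value per probe set and array. GCRMA and MAS5 appear, without versions, in the submitters' processing notes, which do not say from which of them the deposited intensities came. Build and scan order are not given in the sources used here. A platform annotation table named 34945 probe sets by a single symbol. Intensities were used without further normalization as log2(intensity + 16), with the brightest probe set per gene. The fit was limma's lmFit and eBayes (version 3.58.1, R 4.3.3, two-sided) over all 12 arrays in 4 groups, with Benjamini-Hochberg adjustment over 10759 genes and a threshold of 0.05, after a test on simulated data. Members and gene lists were chosen with earlier results of these data known. Array values were printed for the members with the highest and lowest change at 42 h in each subgroup and for those called in any comparison or with the block. List genes were named where called between the labels at 42 h, with or without the block, which is more per list than was planned beforehand. Psmg1 was named for its call over time, and Pomp, Psmb10, Nfe2l1 and Uba6 without a call. Over 18 same-letter pairs of arrays, deviations from group means correlated with a median r of 0.41 (16 above 0.1), against -0.17 over 36 pairs of other letters. At 18 h the 3 letters gave 0.66, 0.31 and 0.65, so they were taken to pair the samples between labels. Alternatives were another pseudocount, filter, normalization, probe set rule, variance prior, array weights, the block, fewer groups in the fit and left-out arrays. Promoter windows came from RefSeq.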

Additional observations from a re-analysis of the deposited data

Results flagged for a closer look

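By limma's test of the difference between the 18 h and 42 h effects, 4.66% of all 10759 genes were called (501, adjusted p under 0.05). Of the 34 tested constitutive genes 0 were called, which lies near that share. Of the 44 tested genes of the related lists 7 were called. Psmb8 differed by -1.27 (adjusted p 0.0023), Psmb9 by -0.82 (0.0323) and Psme1 by -0.53 (0.0205), each lower in GATA1-labelled cells at 42 h and at -0.07, -0.06 and -0.01 against vector at 18 h. With the second Psmb8 probe set its difference was -0.15 (adjusted p 0.682). Trim10 differed by 1.67 (adjusted p 0.0150), Ube2l6 by 1.26 (1.1e-06) and Ubac1 by 0.85 (0.0118). Nfe2l2 differed by 0.45 (adjusted p 0.0457), and with the replicate letter as a block its adjusted p was 0.0559. Its second probe set gave 0.036 (adjusted p 0.989) and the mean of its probe sets 0.24 (adjusted p 0.563). With single arrays left out, the Nfe2l2 call held only without vector-labelled array A at 18 h, GATA1-labelled array A at 18 h or GATA1-labelled array C at 42 h (adjusted p up to 0.112 otherwise). The Psmb9 call held only without GATA1-labelled array A at 18 h or A or B at 42 h, or vector-labelled array C at 42 h (up to 0.0829 otherwise). The Psme1 call was lost without vector-labelled array A at 18 h or A or B at 42 h, or GATA1-labelled array B or C at 18 h (up to 0.0583). Ube2l6 read 8.07 ± 0.08, 8.66 ± 0.02 and 7.89 ± 0.16 (SD, n = 3) in the other 3 groups, near the array medians, and 42.8 ± 2.6 in GATA1-labelled cells at 42 h, so its fold depends on the pseudocount.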

How the results depend on the processing

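In GATA1-labelled against vector-labelled cells at 42 h, 1 member was called with the stricter filter (Psmd9, beside 25.1% of all genes). The replicate block (28.4%) and array weights (27.2%) each called 3, Psmb4, Psmc4 and Psmd9. The mean of all probe sets of a gene (21.9%) called 3 others in part: Psmb4, Psmc4 and Psma5 (0.11, limma adjusted p 0.0314). Psmd9 was not called there (adjusted p 0.074). Without the 4 arrays lettered A, 1 was called (Psmd9, beside 16.3%). Leaving out single arrays gave 0 to 3 members, beside 15.7% to 20.6% of all genes. Psma5, Psmb4 and Psmc4 were called without GATA1-labelled array C at 42 h (17.7%). Psmd9 alone was called without GATA1-labelled array A (19.3%) or vector-labelled array C (19.8%) at 42 h, or vector-labelled array A at 18 h (20.6%). For GATA1-labelled cells over time, 0 members were called with log2(intensity + 1), the stricter filter, the 2 compared groups alone, median centring, the second brightest probe set or without the arrays lettered A. These settings called 7.98% to 17.5% of all genes. There were 3 with the mean of all probe sets (14.7% of all genes), 4 with the replicate block (21.5%), 6 with array weights (27.2%), and 0 to 2 with single arrays left out (9.82% to 14.9%). By limma 0 members were called at 18 h, in the difference of effects or over time in vector-labelled cells. This held under each of the 13 other settings and 12 left-out arrays. The shares of all genes called were 0.316% to 3.33% at 18 h, 1.75% to 7.86% in the difference and 0% to 0.381% in vector-labelled cells. At 18 h and in vector-labelled cells, 0 called members lies near those shares. In the difference it lies near the 4.66% of the main fit.

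Core medians moved to 0.052 (array weights) and 0.032 (without A arrays) at 42 h, 0.10 (array weights) over time in GATA1-labelled cells, 0.060 (second brightest) in the difference of effects, and 0.054 (second brightest) and 0.054 (without A arrays) over time in vector-labelled cells. With single arrays left out they ranged from -0.023 to 0.049 at 42 h, -0.034 to 0.015 at 18 h, -0.0061 to 0.061 in the difference, 0.037 to 0.077 over time in GATA1-labelled cells and 1.7e-05 to 0.053 in vector-labelled cells. Regulatory medians moved to 0.087 (array weights), 0.092 (second brightest) and 0.11 (without A arrays) at 42 h, 0.072 (second brightest) in the difference, 0.050 (mean of all) and 0.055 (without A arrays) over time in GATA1-labelled cells, and -0.0084 (second brightest) in vector-labelled cells. Their single-array ranges were -0.027 to 0.039 at 18 h, -0.013 to 0.057 in the difference and 0.034 to 0.10 over time in GATA1-labelled cells.

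The sign at 42 h turned for Psmb3 (0.066 with array weights, 0.096 without A arrays, -0.16 to 0.086 with single arrays left out), Psmb5 (0.023 without A arrays, -0.090 to 0.047), Psmd2 (-0.069 to 0.013) and Uchl5 (0.13 with its second probe set). The cause was not tested. Low signal over background limits Psma8 and the dim second probe sets.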
